A study of Mus musculus with 36 samples.

Results

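The Notch receptors Notch1, Notch2 and Notch3, the ligands Dll1, Dll3, Dll4, Jag1 and Jag2, and Lfng, which modifies the receptors, were followed through RNA profiles of adult mouse neural stem cells and their progeny. They were chosen by gene symbol, and no measured value was part of that rule, but earlier results of these data were known. All 9 were found among the 19909 genes of the deposited table. The series held 36 libraries in 10 groups, all from C57BL/6 mice aged 8 weeks. Of these, 28 libraries came from 8 populations sorted by flow cytometry from homogenised subependymal zone (SEZ), the stem cell niche along the lateral ventricles: qNSC, pNSC, aNSC and NPC1 (4 libraries each) and NPC2, NB1, NB2 and Other (3 each). The other 8 came from DFFDA_H and DFFDA_L (4 each), sorted from passage 4 neurospheres, floating cultures of SEZ cells kept with EGF and FGF, after 4 days in culture following loading with 2 ug/ml of the dye DFFDA. The labels name the populations only by these codes and do not give the sorting gates, and the design text says that the cultured groups differ in proliferation kinetics without saying which is which. The labels name no transgene and no treatment other than culture and dye loading.

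Notch signalling passes between touching cells. A Delta-like or Jagged ligand on 1 cell engages a Notch receptor on its neighbour, the receptor is cut by an ADAM protease and then by gamma-secretase, and the freed intracellular domain joins Rbpj and a Mastermind coactivator to switch on Hes and Hey repressors. Fringe enzymes such as Lfng add sugars to the receptor that favour Delta-like over Jagged ligands. In the adult SEZ the pathway is known for keeping stem cells undifferentiated, and ligands on their dividing progeny are known to signal back to them.

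Values are the authors' log2 levels, which resemble depth-scaled log2 read counts after quantile normalization, so a step of 1 is a change of 2-fold. The lowest value of a library, its floor, marks genes with no detected reads and ran from -5.06 to -2.18. The most genes at the floor were in qNSC replicate 1 (3932) and pNSC replicate 1 (2319). The other qNSC libraries had 1159 to 1876, within the range of pNSC, NPC2 and Other, and the cultured libraries 362 to 604. Astroglial and neuroblast markers matched the labels broadly. Summed over 8 astroglial and quiescent stem cell markers, levels were 18400 to 22800 in qNSC and pNSC. In NB1 and NB2 they were 150 to 197. The 7 neuroblast markers summed to 4010 to 7610 in NB1 and NB2. They summed to 140 to 239 in qNSC, 451 to 1290 in pNSC and 735 to 930 in aNSC. The 7 activated cell and progenitor markers did not set aNSC apart from neuroblasts. They summed to 3930 to 4180 in aNSC, 5030 to 5850 in NB1 and 4010 to 4470 in NB2. In culture they were lower, at 328 to 405 in DFFDA_H and 492 to 647 in DFFDA_L. Other stood apart by 8 endothelial markers, with sums of 711 to 2110 against 0.525 to 19.4 in the other 9 groups, although its neuroblast markers also summed to 5400 to 7340. In sorted populations measured in bulk, fewer cells carrying a transcript and less of it per cell cannot be told apart.

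The receptors differed in how far they varied. Notch1, on chromosome 2 (GRCm38, 26457903 to 26516663, minus strand), spanned the least of the 9 genes, 1.90 log2 units between its highest and lowest group. It read 6.39, 7.11, 6.67 and 7.07 in the qNSC libraries, 7.30, 7.21, 6.66 and 7.32 in pNSC, and 6.98, 6.62, 6.46 and 7.07 in aNSC. The stem cell libraries thus overlapped throughout. Group means were 5.98 ± 0.35 (SD, n = 4) in NPC1, 6.96 ± 0.42 (n = 3) in NPC2, 5.58 ± 0.27 in NB1, 5.40 ± 0.74 in NB2 and 5.22 ± 0.49 in Other. Ordered by mean, all 9 pairs of neighbouring groups overlapped.

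Notch2, a receptor known for holding SEZ stem cells in quiescence, fell into a high and a low tier. On chromosome 3 (98013527 to 98150361, plus strand), it read 5.93, 6.06, 5.65 and 6.38 in qNSC and 5.74, 5.49, 5.25 and 5.94 in pNSC. In aNSC it read 3.38, 3.49, 3.18 and 3.60. Every qNSC and pNSC library lay above every aNSC library. Lower still was NB1, at 1.76, 1.72 and 1.78, while the cultured groups stood at the qNSC level, with means of 6.06 ± 0.25 in DFFDA_H and 5.69 ± 0.27 in DFFDA_L (n = 4 each).

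Notch3, a receptor also known from the mural cells of vessels, varied most of the 3, over 7.74 log2 units. Per exon length it made up the smallest share of their summed level in all 10 groups. On chromosome 17 (32120820 to 32166852, minus strand), it read 3.79, 3.61, 3.89 and 3.34 in qNSC, 2.00, 2.83, 0.32 and 2.84 in pNSC, and 1.46, 1.77, 1.24 and 1.90 in aNSC. Means were below 0 in NPC1 (-2.02 ± 2.06, n = 4), NPC2 (-0.88 ± 1.22), NB1 (-1.05 ± 1.81) and NB2 (-3.42 ± 1.25, n = 3 each), and NPC1 replicate 1 and NB2 replicate 2 held no detected reads. DFFDA_H was highest at 4.32 ± 0.35 (n = 4), and none of its libraries overlapped those of qNSC.

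**Figure D1:**
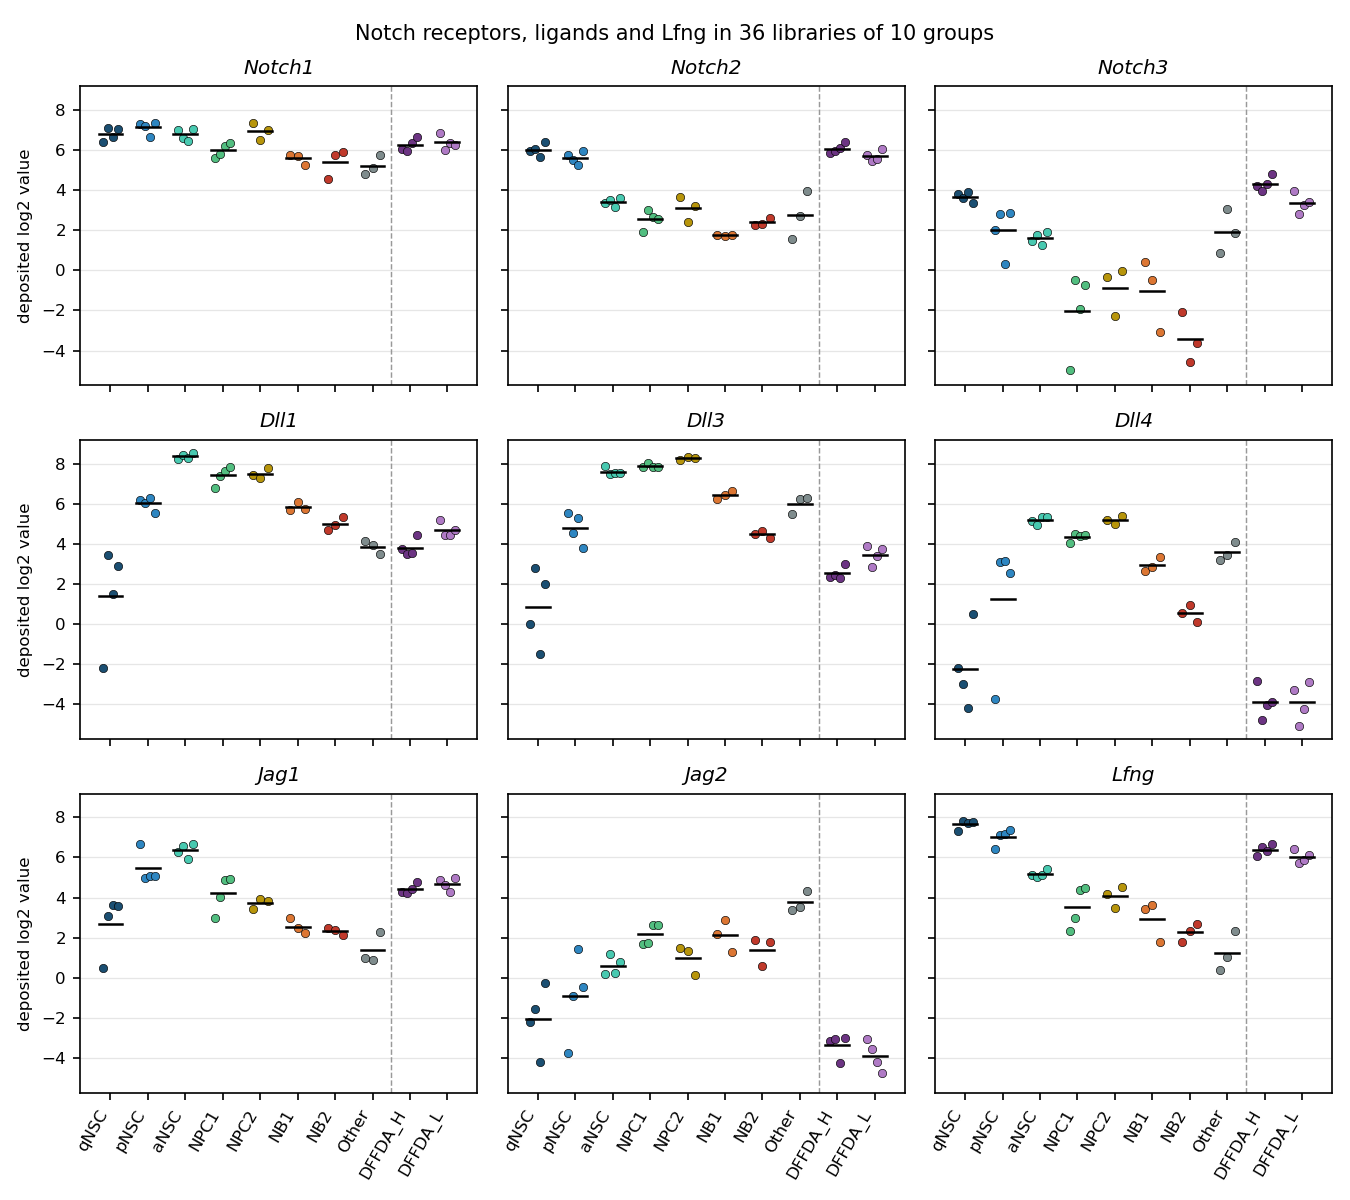
Deposited log2 value (vertical axis) of each gene in every library (points), by group (horizontal axis), with the group mean as a bar and a dashed line between sorted and cultured groups. Notch1 stays between 4.54 and 7.36 in all 36 libraries, whereas Dll1, Dll3 and Dll4 are lowest in qNSC among the sorted groups and highest in aNSC or NPC2.

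The Delta-like ligands were scarce in qNSC and peaked later. Dll1, which activates Notch on adjacent cells (chromosome 17, 15367354 to 15376872, minus strand), read -2.18, 3.43, 1.52 and 2.89 in qNSC, the first of these being that library's floor. It read 6.18, 6.04, 6.27 and 5.56 in pNSC and 8.23, 8.41, 8.28 and 8.51 in aNSC. The ranges of qNSC, pNSC and aNSC did not overlap, and aNSC lay above every other group. NPC1 and NPC2 followed at 7.41 ± 0.47 (n = 4) and 7.51 ± 0.25 (n = 3), then NB1 at 5.86 ± 0.22 and NB2 at 4.99 ± 0.32 (n = 3 each).

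Dll3, a divergent ligand that is known to act on receptors inside its own cell rather than to activate a neighbour (chromosome 7, 28293553 to 28302238, minus strand), peaked later. It read -0.01, 2.81, -1.49 and 2.01 in qNSC, 5.53, 4.56, 5.27 and 3.79 in pNSC and 7.87, 7.49, 7.53 and 7.51 in aNSC. NPC2 was highest, at 8.20, 8.32 and 8.29, above every library of the other groups. NPC1 followed at 7.87 ± 0.10 (n = 4), and NB1 and Other lay below aNSC at 6.45 ± 0.20 and 6.00 ± 0.44 (n = 3 each). Of the 5 ligands, Dll3 made up the largest share of the summed level per length in NPC1, NPC2, NB1, NB2 and Other, from 46.0% in NB2 to 70.8% in Other.

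Dll4, the Delta-like ligand best known from sprouting vessels (chromosome 2, 119325784 to 119335962, plus strand), read -2.18, -2.99, -4.19 and 0.49 in qNSC, where replicates 1 and 3 were at their floors. It read -3.74, 3.10, 3.14 and 2.57 in pNSC, where replicate 1 was at its floor and stood far below the others. The aNSC libraries read 5.12, 4.93, 5.35 and 5.34 and those of NPC2 5.17, 4.97 and 5.37. NB2 was down at 0.55, 0.95 and 0.10, and in both cultured groups Dll4 lay near the floor, at -3.88 ± 0.80 in DFFDA_H and -3.87 ± 0.97 in DFFDA_L (n = 4 each).

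The Jagged ligands followed different courses. Jag1 (chromosome 2, 137081456 to 137116644, minus strand) read 0.47, 3.10, 3.61 and 3.58 in qNSC, 6.68, 4.98, 5.06 and 5.09 in pNSC and 6.26, 6.56, 5.91 and 6.69 in aNSC. In culture it stayed well above the floor, at 4.43 ± 0.26 in DFFDA_H and 4.69 ± 0.32 in DFFDA_L. Ordered by mean, all 9 pairs of neighbouring groups overlapped for Jag1, with aNSC at the top and Other, with a mean of 1.4 ± 0.77 (n = 3), at the bottom. Jag2 (chromosome 12, 112907819 to 112929776, minus strand) was low in every stem cell group, from -2.04 ± 1.63 in qNSC to 0.60 ± 0.48 in aNSC (n = 4 each), and highest in Other, at 3.38, 3.55 and 4.34. No library of another group reached the lowest Other library, NB1 replicate 2 coming nearest at 2.89.

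Lfng (chromosome 5, 140607320 to 140615545, plus strand) followed Notch1 and Notch2 more closely than any ligand. It read 7.32, 7.81, 7.71 and 7.78 in qNSC, 6.44, 7.11, 7.15 and 7.38 in pNSC and 5.12, 5.05, 5.15 and 5.45 in aNSC. The aNSC libraries lay below all qNSC and pNSC libraries, and NB2 (2.27 ± 0.47) and Other (1.26 ± 1.00, n = 3 each) were lower again. Pearson's r was taken across the 28 sorted libraries, which share their groups and a common normalization. For Lfng it was 0.88 with Notch2, 0.83 with Notch1 and 0.63 with Notch3. With the ligands it was 0.49 for Jag1, -0.19 for Dll1, -0.41 for Dll4, -0.50 for Dll3 and -0.75 for Jag2. Within the ligands, r was 0.86 between Dll1 and Dll3 and 0.85 between Dll3 and Dll4. These correlations describe the pattern over groups and were not tested.

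To set receptors against ligands, each level was taken out of the log, divided by the kilobases of exon in the gene, and summed over the 3 receptors and over the 5 ligands in each library. The receptor gene Notch4 was not among the 9 genes, so the receptor sum and its shares leave it out. Its mean log2 level was above that of Notch2 in NB1 (3.12 against 1.76), NB2 (3.68 against 2.39) and Other (4.07 against 2.75). The receptor sum was 15.7 ± 2.61 (SD, n = 4) in qNSC, 15.1 ± 3.06 in pNSC and 9.22 ± 1.69 in aNSC, and between 3.71 and 9.90 in the later sorted groups. The ligand sum was 3.98 ± 2.67 in qNSC, 36.6 ± 11.8 in pNSC and 170 ± 8.51 in aNSC. It was 134 ± 15.4 in NPC1 (n = 4), 156 to 175 over the 3 NPC2 libraries, 48.5 ± 5.03 in NB1 and 17.2 ± 1.12 in NB2 (n = 3 each). Transcripts of these 3 receptors thus exceeded those of the 5 ligands in all 4 qNSC libraries. Ligand transcripts exceeded those of the 3 receptors in all 24 libraries of the other 7 sorted populations. As log2 of receptors over ligands, the means were 2.38 ± 1.25 in qNSC, -1.24 ± 0.67 in pNSC, -4.23 ± 0.20 in aNSC and -4.72 ± 0.20 in NPC1, then -4.09 ± 0.46, -3.68 ± 0.39 and -2.30 ± 0.54 in NPC2, NB1 and NB2. The qNSC spread rests mainly on replicate 1, whose ratio was 4.18 against at most 2.23 in the others, and whose ligand sum was 0.729.

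The makeup of both sums also shifted. Notch1 made up 51.0% of the receptor sum in qNSC, 65.8% in pNSC, 85.0% in aNSC and 91.0% in NPC2, as Notch2 went from 38.6% in qNSC to 10.9% in aNSC. Jag1 made up 40.7% of the ligand sum in qNSC, 22.6% in pNSC, 8.37% in aNSC and 1.41% in NPC2. Dll1 held 45.8% of it in aNSC. In culture the balance was close to even, with receptors over ligands at 0.63 ± 0.13 in DFFDA_H and -0.27 ± 0.12 in DFFDA_L (log2, n = 4 each), and every DFFDA_H library above every DFFDA_L library. Leaving Dll3 out of the ligand sum, since it does not activate neighbours, turned the DFFDA_L value to 0.18. No test was made of these sums.

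**Figure D2:**
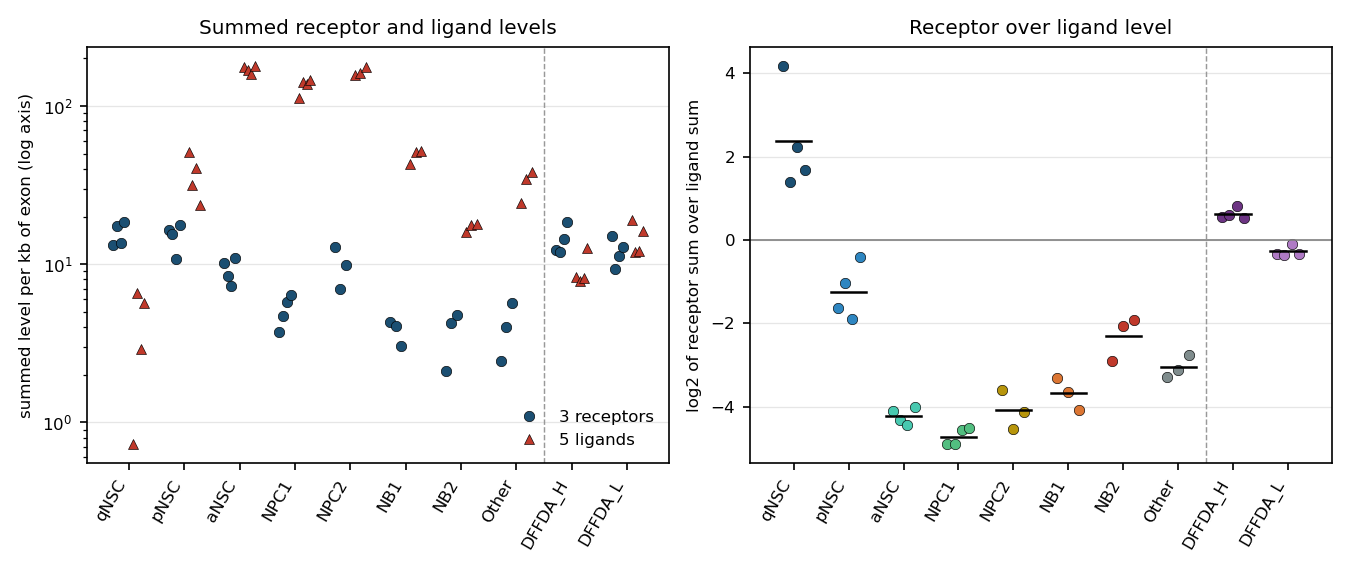
Left, summed level per kilobase of exon (log axis) of the 3 receptors (circles) and 5 ligands (triangles) in every library, by group. Right, log2 of the receptor sum over the ligand sum in every library with the group mean as a bar. Only the qNSC and DFFDA_H libraries lie above 0, and the lowest mean is that of NPC1, at -4.72.

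From qNSC to pNSC, ligands rose while receptors did not pass the test. Of the 9 genes, 4 were called higher in pNSC and none lower at an adjusted p under 0.05 (limma, Benjamini-Hochberg over all genes), where 22.3% of all 17788 genes tested were called, 14.2% higher and 8.06% lower. Dll1 was 24.2-fold higher (limma adjusted p 1.17e-05), Dll3 15.5-fold (6.48e-06), Jag1 6.77-fold (0.000433) and Dll4 11.2-fold (0.0121). Dll1, Dll3 and Jag1 did not overlap between the groups, and neither did Notch3, which was not called. No share of all genes without overlap is given beside this or later statements on overlap, which only describe the genes named. Markers of some other populations were also higher in pNSC than in qNSC. The 7 neuroblast markers summed to 451 to 1290 against 140 to 239, and the 7 activated cell and progenitor markers to 839 to 2150 against 288 to 321. The 8 microglial markers summed to 333 to 647 against 157 to 481, with overlap. The lists for astroglia, endothelium, mural cells, oligodendrocytes and their precursors, ependyma, mature neurons and red cells had lower mean sums in pNSC. The part of other cells in the ligand levels was not tested. Notch1 differed by 0.31 (95% interval -0.24 to 0.86), Notch2 by -0.40 (-1.11 to 0.31) and Notch3 by -1.66 (-3.41 to 0.09) on the log2 scale. Notch3 was called lower only when 1 was added to each level before the log (-1.38, adjusted p 0.00436). The sizes depend on single libraries. Without qNSC replicate 1 the log2 difference of Dll1 was 3.40 in place of 4.60 and that of Jag1 2.02 in place of 2.76, and without qNSC replicate 2 that of Dll1 was 5.27. For Dll3 the difference was 3.96, and 4.62 or 3.18 without qNSC replicate 2 or 3. Dll4 is the least secure: its difference of 3.49 became 5.16 without pNSC replicate 1 and 4.39 without qNSC replicate 4. Its call ended without qNSC replicate 3 (adjusted p 0.0506) or pNSC replicate 2 (0.0504), and at 0.171 with only these 2 groups fitted, and its value without pNSC replicate 3 was 2.86. Jag2 was called only without pNSC replicate 1 (2.09, adjusted p 0.0412). Without qNSC replicate 1 and pNSC replicate 1 together, Dll1, Dll3, Dll4 and Jag1 stayed called.

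Of 44 other pathway genes tested at this step 5 rose and 1 fell, where 22.3% of all genes were called. Mfng, a second fringe enzyme, rose 11.6-fold (limma adjusted p 6.33e-05), and Neurl1b, a ubiquitin ligase of the family that drives ligand endocytosis, 3.95-fold (0.00231). Fbxw7, which marks the intracellular domain for destruction, rose 1.91-fold (0.000538). None of the 6 target genes Hes1, Hes5, Hey1, Hey2, Heyl and Nrarp was called, the smallest adjusted p being 0.0594 for Nrarp.

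From pNSC to aNSC the Delta-like ligands rose further and Notch2 and Lfng fell. The counts were 3 higher and 2 lower, where 48.3% of all genes were called, 28.4% higher and 19.9% lower. Dll1 rose 5.08-fold (limma adjusted p 0.00408), Dll3 7.01-fold (0.000103) and Dll4 15.1-fold (0.00178), and Notch2 was 4.57-fold lower (9.55e-06) and Lfng 3.54-fold lower (0.00129). The libraries of these genes did not overlap between pNSC and aNSC, a description with no share of all genes beside it. The Dll4 difference, 3.92 on the log2 scale, was 2.25 without pNSC replicate 1, 4.53 without replicate 2 and 4.54 without replicate 3. Jag1 differed by 0.90 (-0.18 to 1.98) and passed the test only without pNSC replicate 1 (1.31, adjusted p 0.0439, or 0.00344 when qNSC replicate 1 was left out too) and under library weights (0.00635). Jag2 passed only without pNSC replicate 3 (0.0146).

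Most target genes fell at this step. Of the 6, Hey1 (3.26-fold, limma adjusted p 5.08e-05), Nrarp (1.96-fold), Hes5 (3.13-fold) and Heyl (5.36-fold) fell, none rose, and Hes1 and Hey2 did not pass the test. Of 10 genes of receptor cleavage 6 fell and 1 rose. Psen2, a catalytic subunit gene of gamma-secretase, was 3.33-fold lower (3.79e-05), and Aph1b and Ncstn, of the same complex, 1.91-fold and 1.44-fold, while Aph1a, also of that complex, was higher by 0.58 on the log2 scale (0.0228). In the nuclear complex 3 of 6 rose, with Rbpj, the DNA-binding partner of all Notch receptors, 1.90-fold higher (0.00112). Mfng rose again, 4.60-fold (0.00244), as did Neurl1b, 4.80-fold (0.000176).

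Over both steps, from qNSC to aNSC, all 5 ligands rose and Notch2, Notch3 and Lfng fell, where 62.3% of all genes were called, 35.3% higher and 27.1% lower. This comparison shares its libraries with the steps just given. The log2 rises were 6.94 for Dll1 (limma adjusted p 7.73e-10), 6.77 for Dll3 (3.31e-11), 7.40 for Dll4 (3.17e-07), 3.66 for Jag1 (1.10e-06) and 2.64 for Jag2 (0.00449). Against these, the median change of all genes was 0.19. Notch2 was 6.02-fold lower (3.34e-07), Lfng 5.51-fold lower (2.60e-05) and Notch3 4.19-fold lower (0.037), whereas Notch1 differed by -0.03 (-0.58 to 0.52). Dll4 and Jag2 were at the floor in 2 of the 4 qNSC libraries, so their folds depend on it, and Dll1 was at the floor in replicate 1. Without qNSC replicate 1 the rise was 5.75 for Dll1 and 2.92 for Jag1, and without replicate 2 it was 7.61 for Dll1 and 7.43 for Dll3. Without replicate 3 it was 5.99 for Dll3, 6.75 for Dll4 and 1.93 for Jag2, and without replicate 4 it was 8.30 for Dll4 and 3.23 for Jag2. The Notch3 call ended without qNSC replicate 1, 2 or 3 or aNSC replicate 1, 2 or 3, with adjusted p of 0.0539 to 0.0764. Beside Notch3, the summed level of the 5 mural cell markers found was 121 to 167 in qNSC, 23.7 to 149 in pNSC and 1.55 to 7.51 in aNSC. That in qNSC was nearly all Pdgfrb (mean 7.11), with Rgs5, Acta2, Vtn and Cspg4 at -0.87 to 1.29, and its part in the Notch3 result was not tested.

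**Figure D3:**
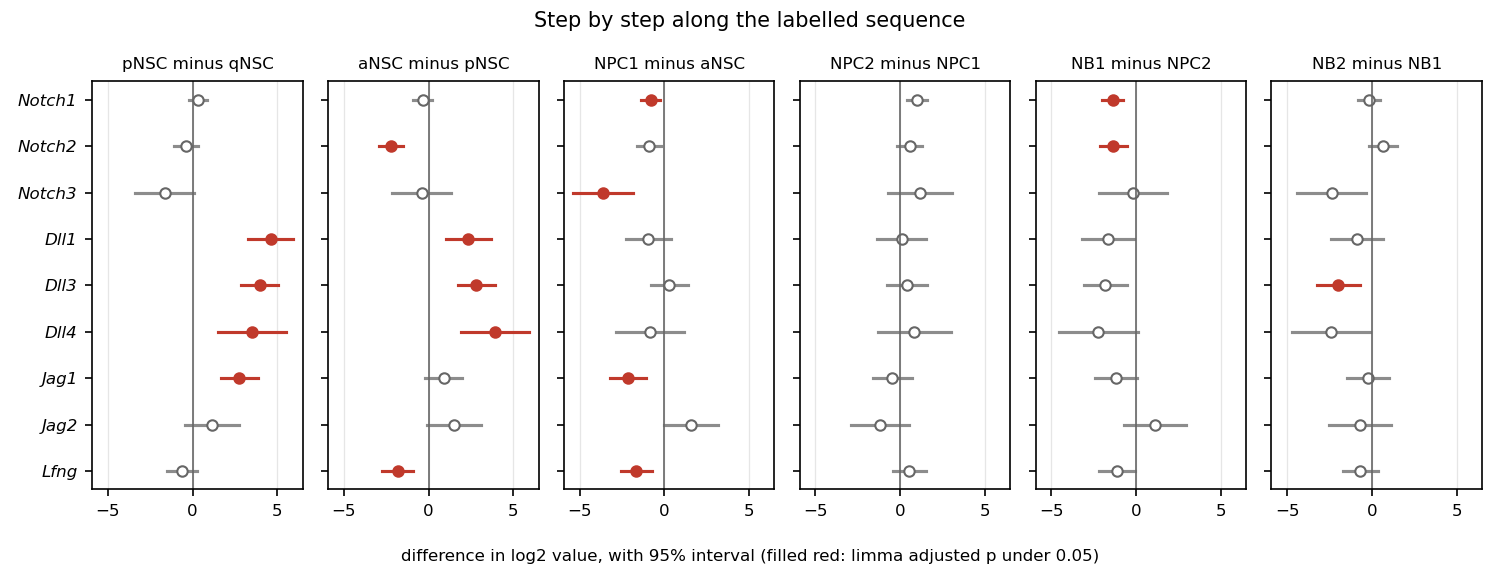
Difference in log2 value at each step of the labelled sequence (horizontal axis) for each gene (rows), with 95% intervals from the limma fit, and filled red points where the adjusted p is under 0.05. The genes called higher are all ligands, at the first 2 steps, and each gene called at the later steps is lower.

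Between aNSC and NPC1, Notch1 and Notch3 fell together with Jag1 and Lfng, and no Delta-like ligand passed the test. There were 4 called lower and none higher, where 12.7% of all genes were called, 6.24% higher and 6.48% lower. Notch3 was 12.2-fold lower (limma adjusted p 0.00527), Jag1 4.44-fold (0.00694), Lfng 3.14-fold (0.0128) and Notch1 1.74-fold (0.0475). Dll3 read 7.87 ± 0.10 in NPC1 against 7.60 ± 0.18 in aNSC (n = 4 each) and was not called (0.801). Without NPC1 replicate 1, which held no detected Notch3 reads, the Notch3 difference was -2.63 in place of -3.61, and the Lfng call ended (-1.25, adjusted p 0.0807). The Notch1 call ended without any of aNSC replicates 1, 2 and 4 or NPC1 replicates 1, 2 and 3 (adjusted p 0.0586 to 0.167) and without a filter on low values (0.053). The spread that judges this step is shared with the uneven qNSC and pNSC libraries. With those 8 left out, Dll1 (-0.95, adjusted p 0.00175), Dll4 (-0.85, 0.00752) and, higher in NPC1, Jag2 (1.58, 0.00971) were called as well. Calls over all genes rose in that fit too, to the count given with the other processing choices below. Of the 6 target genes 5 fell at this step: Hes5 3.02-fold (0.00112), Nrarp 1.86-fold, Hey1 2.18-fold, Hey2 5.04-fold and Hes1 5.77-fold.

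NPC2 did not differ from NPC1 by a called change in any of the 9 genes, where 1.34% of all genes were called, 0.202% higher and 1.14% lower. At an unadjusted p under 0.05 there was 1, Notch1, 1.97-fold higher in NPC2 (p 0.00231, limma adjusted p 0.104), with 7.36, 6.52 and 6.99 in NPC2 above every NPC1 library. Fitting only these 2 groups called Notch1 (0.0406) and Dll4 (0.0169), and library weights called Notch1 (0.00346) and Jag2 (0.0301). Among target genes the smallest adjusted p was 0.147, for Nrarp.

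From NPC2 to NB1, Notch1 and Notch2 fell, and the Delta-like ligands had lower means in NB1 without passing the test. The count was 2 lower and none higher, where 7.67% of all genes were called, 3.78% higher and 3.88% lower. Notch1 fell 2.60-fold (limma adjusted p 0.00509) and Notch2 2.51-fold (0.0379), and the Notch2 call ended without NPC2 replicate 1 or 3 or any 1 NB1 library (0.0747 to 0.186). Dll1 read 7.45, 7.29 and 7.78 in NPC2 and 5.71, 6.11 and 5.75 in NB1, a difference of -1.65 (-3.18 to -0.11, adjusted p 0.205). Dll3 differed by -1.82 (-3.08 to -0.56, 0.0707) and Dll4 by -2.22 (-4.54 to 0.10, 0.276). The libraries of Dll1, Dll3 and Dll4 did not overlap between NPC2 and NB1, with no share of all genes given beside it. With the qNSC and pNSC libraries left out of the fit, Dll1 (adjusted p 5.95e-05), Dll3 (9.96e-07) and Dll4 (6.43e-06) were called as well. More of all genes were called in that fit as well, and their count is given below. Of the 6 target genes 4 fell: Hes5 5.48-fold (5.91e-05), Nrarp 1.87-fold, Hey1 2.73-fold and Hey2 5.24-fold.

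Between NB1 and NB2 only Dll3 was called, 3.91-fold lower in NB2 (limma adjusted p 0.0201), where 24.6% of all genes were called, 10.4% higher and 14.2% lower. It read 6.25, 6.45 and 6.65 in NB1 and between 4.31 and 4.64 in NB2. The call ended without NB1 replicate 3 (0.0647) or NB2 replicate 3 (0.0657). Leaving the qNSC and pNSC libraries out of the fit called Dll1 (-0.87, 0.00549) and Dll4 (-2.41, 2.71e-07) as well. Notch3 passed without NB1 replicate 3 (-3.39, 0.0202) or NB2 replicate 1 (-3.04, 0.0442). In this step Maml3 and Kdm5a, of the nuclear complex, rose 5.04-fold (1.04e-06) and 2.19-fold (2.09e-05), and Neurl1b fell 5.16-fold (0.00129).

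Set against aNSC directly, NB2 was lower in 8 of the 9 genes, all but Jag2, where 50.8% of all genes were called and 27.1% were lower. The median of the 9 was -3.11, beside -0.05 over all genes. Dll4 fell 25.1-fold, Jag1 16.1-fold (limma adjusted p 1.64e-06), Dll1 10.3-fold, Dll3 8.65-fold, Lfng 7.59-fold, Notch1 2.61-fold and Notch2 2.03-fold. Notch3 fell 32.2-fold (5.87e-05), a size that depends on its low NB2 values. The Notch2 call ended without aNSC replicate 4 or NB2 replicate 1 or 2 (0.0551 to 0.0718), and the Notch3 difference of -5.01 was -5.68 without NB2 replicate 1 and -1.85 with 1 added to each level before the log. All 6 target genes fell, led by Hes5, at 30.4-fold (6.67e-12).

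In the population labelled Other, Jag2 alone of the 9 genes lay outside the range of the other sorted libraries. The share of all genes that did so is not given. Set against the average of the 7 named sorted population means, 2 genes were higher and 5 lower, where 54.3% of all genes were called, 25.9% higher and 28.4% lower. Jag2 was 8.79-fold higher (limma adjusted p 0.000344) without overlap with any other sorted library, and Notch3 3.87-fold higher (0.0276). Lfng was 10.6-fold lower (6.93e-08), Jag1 5.68-fold (5.25e-05), Dll1 4.21-fold (0.00294), Notch1 2.23-fold (0.00016) and Notch2 1.74-fold (0.0267). Against single populations the order differed for some genes. The Notch3 mean of 1.93 in Other lay below those of qNSC (3.66) and pNSC (2.0). Its Notch2 mean of 2.75 lay above those of NPC1 (2.54), NB1 (1.76) and NB2 (2.39). Dll1, at 3.86 in Other, was lower still in qNSC (1.42). Notch3 read 0.86, 3.06 and 1.88 in Other, and its call ended without replicate 2 (1.39, 0.202) or replicate 3 (0.0798). The Notch2 difference of -0.80 was -0.19 without replicate 1 (0.597), -0.79 without replicate 2 (0.0802) and -1.41 without replicate 3. All 8 endothelial markers had their highest mean in Other, from 3.85 for Cdh5 to 9.05 for Cldn5, and the 5 mural markers found summed to 136 to 1890 there. Their part in the Jag2 and Notch3 levels was not tested. Among target genes Hes1 (7.96-fold) and Heyl (8.36-fold) were higher in Other, and Nrarp (3.95-fold), Hes5 (2.41-fold) and Hey1 (2.04-fold) lower. The means of Hes1 (4.9) and Heyl (2.46) in Other still lay below those of qNSC (5.37 and 4.4) and pNSC (5.2 and 2.63). Those of Hes5 (3.46) and Hey1 (2.46) in Other lay above NB1 (1.95 and 1.68) and NB2 (1.14 and 1.16).

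In culture, Notch3 was higher and Dll1 and Dll3 lower in DFFDA_H than in DFFDA_L, each by less than 2-fold. Of the 7 that passed the filter on low values, 1 was higher and 2 lower in DFFDA_H, where 43.8% of the 15956 genes tested were called, 21.6% higher and 22.3% lower. Dll4 and Jag2 did not pass the filter. Notch3 read 4.18, 3.97, 4.32 and 4.79 in DFFDA_H and 3.97, 2.81, 3.27 and 3.43 in DFFDA_L, 1.93-fold higher (limma adjusted p 0.00604). Dll1 read 3.72, 3.51, 3.54 and 4.42 against 5.18, 4.43, 4.43 and 4.67, 1.84-fold lower without overlap (0.00577), and Dll3 was 1.91-fold lower (0.00693). Notch2 differed by 0.37 (0.06 to 0.69, adjusted p 0.0544) and Lfng by 0.35 (0.02 to 0.67, 0.0823). Leaving out DFFDA_H replicate 1 called both (0.0365 and 0.0344), as did leaving out DFFDA_L replicate 4 for Notch2 (0.0124) and DFFDA_L replicate 1 for Lfng (0.00921). In a fit of all 36 libraries the calls of Notch3 (0.469), Dll1 (0.363) and Dll3 (0.214) ended. Of 4 target genes tested Hey1 rose, 1.61-fold (9.70e-05), as did the cleavage genes Aph1a (2.85-fold) and Psen2 (2.45-fold). The contrast of DFFDA_H with DFFDA_L differed from that of qNSC with aNSC for 5 of the 7 genes that passed the cultured filter, in a limma test between the contrasts, where 42.3% of all genes passed. These were Notch2, Dll1, Dll3, Jag1 and Lfng, each with the smaller difference in culture.

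Cultured cells were also set against sorted stem cells in a fit of all 36 libraries, in which culture, dye loading and population cannot be told apart. Against aNSC, DFFDA_L had 2 genes higher and 5 lower, where 70.1% of all 19158 genes were called, 31.4% higher and 38.7% lower. Of the ligands, Dll1 was 12.8-fold lower (limma adjusted p 1.54e-06), Dll3 17.6-fold (5.38e-09) and Jag1 3.18-fold (0.00248). The other 2 called lower were Jag2 (22.3-fold) and Dll4 (533-fold). Dll4 and Jag2 did not pass the cultured filter and were tested only because of their sorted levels. No weight is therefore put on these 2 calls, and the size of both folds is set by the floor. With 1 added to each level before the log, the differences were -5.12 for Dll4 and -1.24 for Jag2, in place of -9.06 and -4.48. Notch2 was 4.85-fold higher (1.01e-07) and Notch3 3.44-fold higher (0.0358), the latter call ending without aNSC replicate 1 or 3 or DFFDA_L replicate 1, 3 or 4 (0.0538 to 0.0899). Among target genes Hes1 and Hey1 were 7.43-fold and 5.40-fold higher, and Nrarp and Hes5 45.9-fold and 15.0-fold lower.

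Against qNSC, DFFDA_H had Dll1 (5.22-fold, limma adjusted p 0.00054), Dll3 (3.25-fold, 0.00245) and Jag1 (3.33-fold, 0.00156) higher and Lfng lower (2.40-fold, 0.0054), where 74.2% of all genes were called, 37.2% higher and 36.9% lower. Notch2 differed by 0.06 (-0.58 to 0.69). Without qNSC replicate 1 the log2 difference was 1.19 in place of 2.38 for Dll1 and 1.00 in place of 1.74 for Jag1, and the Notch1 difference of -0.56 was called (-0.70, 0.0236). For Dll3 it was 1.70, 2.36 without qNSC replicate 2 and 0.92 without replicate 3, and it was not called with only these groups fitted (0.0772). Without qNSC replicate 2 the Dll1 difference was 3.05. Dll4 and Jag2 were near the floor in both groups, and the floors differ, so no direction is read for them. Without DFFDA_H replicate 4 Notch1 was called (0.0258).

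**Figure D4:**
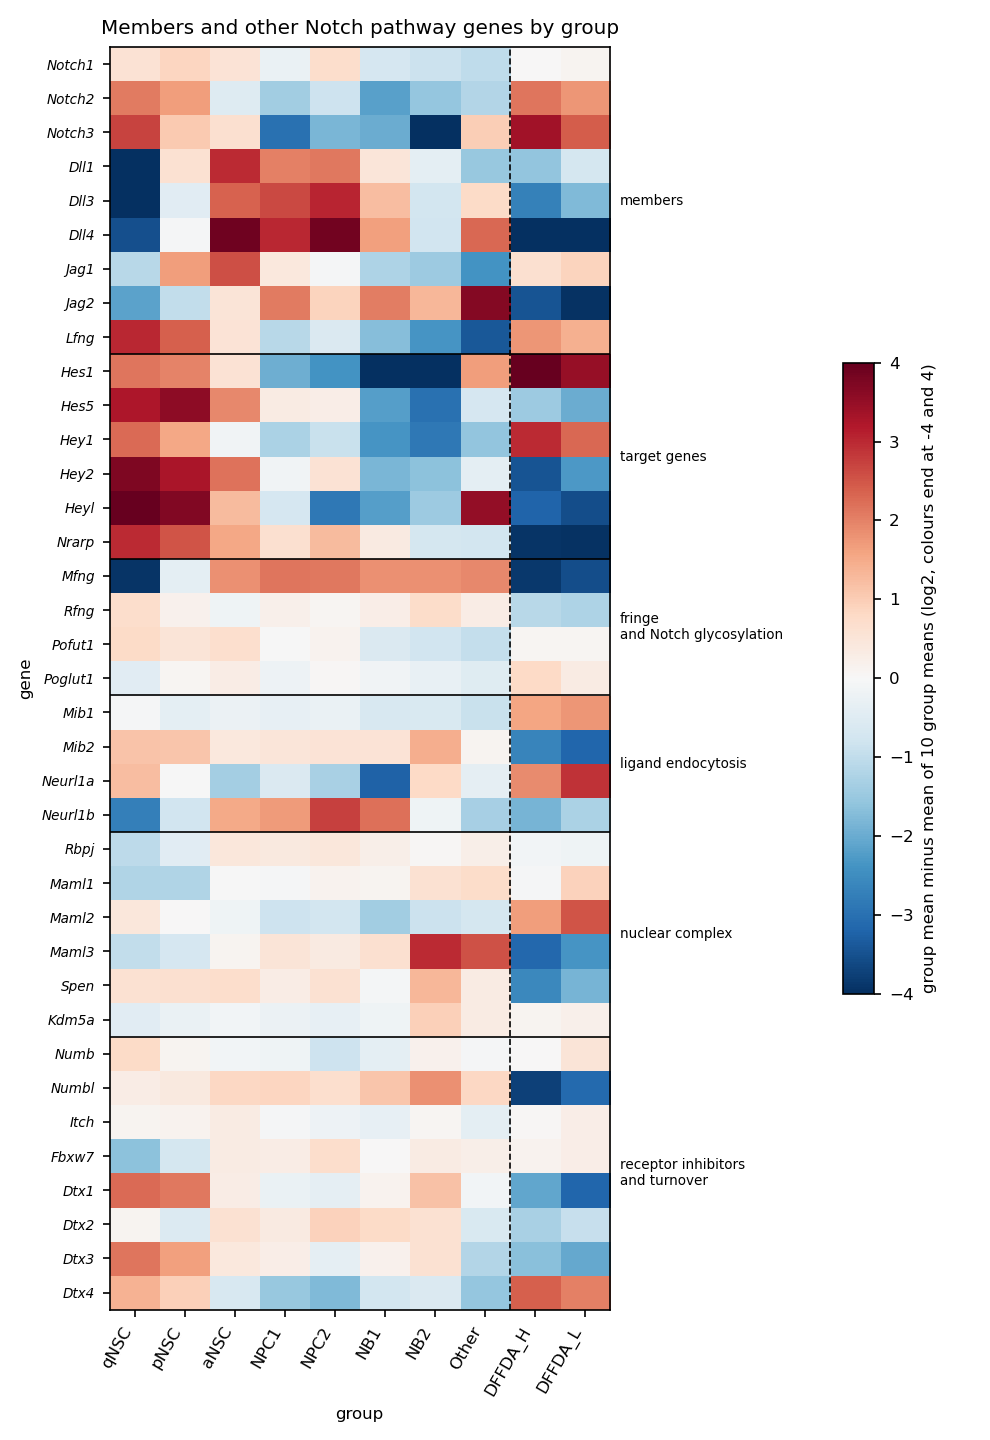
Group mean of each gene minus its mean over the 10 groups (log2, colour), for the 9 genes and 28 others of the pathway (rows) by group (columns). All 6 target genes lie above their means (red) in qNSC and pNSC, and the cultured groups combine high Hes1 and Hey1 with low Nrarp, Hey2 and Heyl.

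The bases before the starts of Dll1, Dll3, Dll4 and Jag1, which rose between qNSC and aNSC, and of Lfng, which fell, are shown. They are only part of the genes that changed. Jag2 rose and Notch2 and Notch3 fell at the same comparison and are not shown, nor is the other Dll1 start. None of those windows held either motif searched for. All 9 genes matched the RefSeq promoter table (GRCm38.p6), with 10 starts in all. Each printed run is the 250 bases before a start, 5′ to 3′ on the gene's strand, and capitals mark CAGCTG, an E-box of the kind that proneural bHLH factors bind, or TGGGAA on either strand, the core of the Rbpj site.
Dll1 (chr17:15376933-15377182, minus strand): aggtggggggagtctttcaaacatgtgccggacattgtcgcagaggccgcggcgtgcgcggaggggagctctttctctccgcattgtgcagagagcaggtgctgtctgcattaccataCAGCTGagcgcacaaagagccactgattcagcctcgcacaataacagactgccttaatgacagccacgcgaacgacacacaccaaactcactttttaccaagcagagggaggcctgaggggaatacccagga
Dll3 (chr7:28301786-28302035, minus strand): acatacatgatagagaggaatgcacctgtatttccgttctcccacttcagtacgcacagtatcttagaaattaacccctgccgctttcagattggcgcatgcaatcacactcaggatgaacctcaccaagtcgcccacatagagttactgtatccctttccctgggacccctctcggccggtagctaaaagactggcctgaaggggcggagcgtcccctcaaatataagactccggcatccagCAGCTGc
Dll4 (chr2:119325534-119325783, plus strand): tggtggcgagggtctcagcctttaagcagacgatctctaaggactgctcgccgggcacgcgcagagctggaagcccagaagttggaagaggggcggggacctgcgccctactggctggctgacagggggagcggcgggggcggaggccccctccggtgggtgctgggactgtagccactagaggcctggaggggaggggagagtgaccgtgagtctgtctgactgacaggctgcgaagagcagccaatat
Jag1 (chr2:137116521-137116770, minus strand): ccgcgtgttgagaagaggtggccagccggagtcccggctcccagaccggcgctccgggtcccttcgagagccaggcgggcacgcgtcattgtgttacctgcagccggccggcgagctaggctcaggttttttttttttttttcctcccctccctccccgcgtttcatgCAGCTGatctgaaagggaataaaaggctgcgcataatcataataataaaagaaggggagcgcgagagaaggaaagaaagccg
Lfng (chr5:140607091-140607340, plus strand): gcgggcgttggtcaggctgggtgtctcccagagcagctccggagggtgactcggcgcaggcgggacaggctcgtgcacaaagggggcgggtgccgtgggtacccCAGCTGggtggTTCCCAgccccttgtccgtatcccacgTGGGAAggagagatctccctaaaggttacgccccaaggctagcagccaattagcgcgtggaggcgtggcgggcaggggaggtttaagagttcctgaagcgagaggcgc
Over windows of 300 bases, from 250 before to 50 after the start, CAGCTG lay in 16.3% of all 32851 promoters of the table and TGGGAA in 25.6%. The 2 motifs did not overlap each other in these windows. Among the 10 starts, CAGCTG was found at 4: at base -132 of the Dll1 start shown, -7 of Dll3, -82 of Jag1, and -146 and 2 of Lfng, counted from the start as base 1 with no base 0. TGGGAA was found at Lfng alone, at -135 and -108. Neither was found in the windows of Notch1, Notch2, Notch3, Dll4, Jag2 or the other Dll1 start. A match is a description of letters, and no binding was measured.

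Of the 44 pathway genes tested in sorted cells, 10 rose and 18 fell from pNSC to aNSC, where 28.4% and 19.9% of all genes did. From aNSC to NPC1 1 rose and 9 fell (6.24% and 6.48% of all genes), and from NPC2 to NB1 1 rose and 5 fell (3.78% and 3.88%). From NB1 to NB2 11 rose and 4 fell (10.4% and 14.2%). The receptor gene Notch4, best known from endothelium, took a different course from the other receptors. It fell to aNSC, from 3.06 ± 0.40 in qNSC to 1.31 ± 0.21 (n = 4 each, limma adjusted p 3.08e-05), rose 2.14-fold in NPC1 (0.0212) and stood at 3.68 ± 0.18 in NB2 and 4.07 ± 0.17 in Other (n = 3 each). NB2 was thus 5.18-fold above aNSC (2.23e-06), and Other 2.69-fold above the mean of the named populations (0.000103), where the endothelial markers given above were also highest. Dtx1, a cytoplasmic regulator of Notch, was 3.46-fold lower in aNSC than in pNSC (2.83e-07) and 2.04-fold higher in NB2 than in NB1 (0.00409). In culture 10 of 40 pathway genes tested were higher and 7 lower in DFFDA_H, close to the 21.6% and 22.3% of all genes, among them Dtx1, 2.17-fold higher (0.00242).

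Reads from overlapping genes cannot be told apart, since the library kit does not mark strand. A930024N18Rik, which overlaps Dll1 on the opposite strand (chromosome 17, 15375000 to 15379475), followed it with Pearson's r of 0.978 over the 28 sorted libraries, from a mean of -0.35 in qNSC to 5.75 in aNSC. Gm17276, opposite Notch3, followed it with r of 0.977, and Gm14207, opposite Dll4, with 0.83. Opposite Notch1, 0610009E02Rik and Gm13568 had r of 0.836 and 0.706, and Gm42820, on the strand of Notch2, 0.837. Dll3, Jag1, Jag2 and Lfng overlap no other annotated exon.

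The genes most like each member were taken by Pearson's r over the same 28 libraries among the 17788 genes tested, as a description without a test. Past its overlapping partner, Dll1 was nearest to Dtl, a replication control gene (0.966), and Pde3b (0.962). Dll3 was nearest to Chaf1b, a chromatin assembly factor of replicating cells (0.962), and to Fbl (0.961) and Bop1 (0.958), which act in ribosome assembly. Lfng was nearest to Fgfr1, an FGF receptor (0.983), Adgrb1 (0.981) and Aldh4a1 (0.98), and Notch2 to Gm20402 (0.967), the glutamate receptor gene Grm3 (0.961) and Gm13872 (0.959). Notch1 had no close match, its best being Ampd3 (0.897), Coro2b (0.893) and the Hedgehog transducer Smo (0.885). Best for Notch3 after its partner was Trim12a (0.925), for Dll4 the arginyl-tRNA synthetase gene Rars (0.924), for Jag1 Lsm14a (0.913) and for Jag2 Smim18 (0.906).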

How the data were processed

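RNA of 28 sorted and 8 cultured libraries was made into cDNA with a SMARTer kit that does not mark strand and sequenced on a NextSeq system, per the labels' protocols. The submitters' processing notes name HISAT2, featureCounts and limma, with builds GRCm38 and mm10. No source used here gives tool versions or the gene annotation. Values come as a single table from the authors, on a log2 scale whose unit is inferred. Unlogged, every library adds up to between 987637 and 987910, and the medians of 3.53 to 3.56 are what quantile normalization leaves, which hides changes in total RNA. Total reads are unknown, so no counting interval is given. The 1770 blank lines were dropped.

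R 4.3.3 and limma 3.58.1, with a mean-variance trend and robust empirical Bayes, fitted population means to the 28 sorted libraries, to the 8 cultured ones, and to all 36 for comparisons across them. A gene entered a fit if 3 or more libraries of any 1 group had log2 values of 0 or above, leaving 17788, 15956 and 19158. Two-sided p-values were adjusted by Benjamini-Hochberg over all genes tested, and under 0.05 was called. Separate animals or cultures are not stated for the replicates, so the p-values reflect only how far these libraries spread, which may be technical. The script was tested on simulated data. Positions and exon lengths came from the GENCODE annotation of GRCm38, promoters from RefSeq. Pathway lists held 46 genes, 45 of them in the table. A listed gene is not reported here by name, and other pathway genes are named where called, at most 4 per list and comparison by smallest p, beside all 6 target genes, whose naming beyond that was chosen after their values were seen. The members, lists and markers were chosen with earlier results of these data known. The alternatives without the qNSC and pNSC libraries and the test of culture against fresh tissue were added after seeing the data.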

Additional observations from a re-analysis of the deposited data

Results flagged for a closer look

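The values of 1 gene in 1 group of 4 libraries or more made up a set, giving 54 sets. In 6 of these, 1 library lay apart from the rest by Dixon's criterion, which chance meets in about 1 set in 20. The sets share libraries, so they are not independent. The Dll4 value of pNSC replicate 1 was -3.74, its floor, where the others were 2.57 or more. Jag1 was 0.47 in qNSC replicate 1 and 6.68 in pNSC replicate 1. Dll3 was 7.87 in aNSC replicate 1 and 8.03 in NPC1 replicate 2, and Jag2 was -4.23 in DFFDA_H replicate 3.

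The contrast of DFFDA_H with DFFDA_L was also set against that of qNSC with aNSC in the fit of all 36 libraries, a pairing of labels chosen after seeing the data, since the labels do not say which cultured group divides more slowly. The difference between the contrasts passed the limma test for 5 of the 7 genes that passed the cultured filter, where 42.3% of all genes passed. Dll1 differed by 6.06 (adjusted p 4.59e-07), with -0.88 in culture and -6.94 in the sorted cells. Dll3 differed by 5.83 (3.39e-08) and Jag1 by 3.40 (0.000111). Notch2 differed by -2.22 (0.000121), with 0.37 in culture and 2.59 in the sorted cells, and Lfng by -2.12 (0.0028). Notch1 (-0.15, 0.785) and Notch3 (-1.12, 0.425) did not pass. Dll4 (7.39) and Jag2 (3.16) also met the threshold, but both were near the floor in both cultured groups, which leaves a cultured difference near 0, so they are not counted.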

How the results depend on the processing

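Over 1638 recomputed member differences, 1519 kept their direction and side of the threshold, 41 lost a call, 78 gained one and 0 reversed. The counts of members called moved as follows. For NPC1 against aNSC, 4 called became 7 with library weights, 8 with only the groups compared and 7 without the qNSC and pNSC libraries, and 2 to 4 when leaving out 1 replicate. For NPC2 against NPC1, 0 became 2 with library weights and 2 with only the groups compared. For NB1 against NPC2, 2 became 5 with 1 added to each level before the log, 8 with weights, 6 with only the groups compared and 5 without the qNSC and pNSC libraries, and 1 to 2 when leaving out 1 replicate. For NB2 against NB1, 1 became 2 with 1 added to each level before the log, 7 with weights, 4 with only the groups compared, 2 with all 36 libraries and 3 without the qNSC and pNSC libraries, and 0 to 2 when leaving out 1 replicate. For DFFDA_H against DFFDA_L, 3 became 5 with weights and 0 with all 36 libraries, and 3 to 5 when leaving out 1 replicate, and for DFFDA_H against qNSC 4 became 7 with weights. The cause was not tested. A count over all genes is given below for only some of these settings, and no share of genes called for any. These member counts therefore describe the settings and are not read as results about the members.

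Receptors over ligands without Dll3 became -3.48 in aNSC, -3.30 in NPC1, -2.52 in NPC2, -2.22 in NB1, -1.40 in NB2, -1.26 in Other, 0.99 in DFFDA_H and, with a change of sign, 0.18 in DFFDA_L, since fewer ligands are summed. In DFFDA_H the ratio was 0.48 with coding lengths and 0.48 with 1 added to each level.

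Over all genes, calls from qNSC to pNSC went from 3959 to 2234 with weights, 1511 with only the groups compared and 2255 without qNSC 1 and pNSC 1. The share higher was 63.8%, and 52.7% with 1 added to each level before the log. From aNSC to NPC1, calls went from 2262 to 5983 with weights, 5080 with only these groups and 3776 without the qNSC and pNSC libraries. From NPC1 to NPC2, 239 became 2180, 578 and 519 in the same order, and 376 with all 36 libraries. From NPC2 to NB1, 1364 became 6234, 2888 and 2440. From NB1 to NB2, 4371 became 9015 and 6690 with weights and with only these groups. For DFFDA_H against DFFDA_L, 6995 became 3234 with all 36 libraries.

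The labels do not say that a replicate number marks a shared animal or day. Same-numbered libraries of different groups deviated together with r over 0.1 in 14 of 90 sorted pairs and 2 of 4 cultured pairs. Differently numbered ones did so in 11 of 252 sorted pairs and 2 of 12 cultured pairs. Of the 8 cultured libraries, 4 correlated best with their own number. These are hints from the data only. With the replicate number as a block, 2 calls changed: Notch2 in DFFDA_H against DFFDA_L passed (0.0131), giving 4 members called, and Lfng in DFFDA_L against aNSC passed (0.0451), giving 8.

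Depth limits the low genes: where libraries sit at or near the floor (Dll4 and Jag2 in qNSC and in culture, 1 library each for Dll1 in qNSC and Notch3 in NPC1 and NB2), the size of a fold depends on that floor.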
